A study of Mus musculus with 21 samples.

Results

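The response of NMuMG cells to 2 h of transforming growth factor beta 1 (TGF-b1) was read in total RNA, as TGF-b1-treated cells minus control cells. NMuMG is a line of mouse mammary gland epithelial cells. The comparison took the 6 total RNA arrays of a table of 12 Affymetrix arrays, 3 per group, and covered all 18193 genes of the table. Each gene was represented by its probe set of highest mean in that table. TGF-b1-treated cells had received 5 ng/ml TGF-b1 and 200 µM 4-thiouridine (4sU) for 2 h, and control cells 200 µM 4sU alone for 2 h. 4sU is a uridine analogue that enters RNA made while it is present, so both groups carried the label, and a group without 4sU was not analysed here. The other 6 arrays of the table held the enriched 4sU-labelled RNA, called newly made RNA here, of TGF-b1-treated and control cells. A separate table held NM18 cells transfected with 25 nM control siRNA, of which 3 cultures received 5 ng/ml TGF-b1 for 40 h and 3 did not, and a group with an siRNA against FoxQ1 and TGF-b1, which entered the fit only. The submitters describe the replicates as biological. The number of arrays, 3 per group, limited the precision.

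TGF-b1 is a secreted factor that binds a pair of serine/threonine kinase receptors, of type I and type II, on the cell surface. The active type I receptor phosphorylates SMAD2 and SMAD3, which join SMAD4, enter the nucleus and act on target genes together with other transcription factors. Among the first targets are genes that dampen the signal, such as the inhibitory SMAD7. In mammary epithelial cells the factor is known for growth arrest and for the epithelial to mesenchymal transition (EMT), in which cells give up cell-cell junctions and gain a migratory, matrix-producing character. Early response genes are known to come first and junction and matrix genes later.

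Values were on a log2 scale, so that a difference of 1 is a change by a factor of 2, and a value after ± is the standard error (SE) of a log2 change. The array medians lay between 5.69 and 5.74 in the 6 total RNA arrays, and the arrays correlated across genes at r = 0.989 to 0.997. The median log2 change over all genes was -0.03. Markers of luminal mammary epithelium were mostly present, with a mean level of 9.21 to 9.34 on the TGF-b1 arrays and 9.09 to 9.16 on the control arrays. Of the 10 luminal markers 3 lay below the median level of all genes, among them Cldn4 (mean 5.43 in control cells). The keratin gene Krt8 averaged 14.07 in TGF-b1-treated cells and 14.10 in control cells. Most fibroblast (9 of 10), macrophage and leukocyte (8 of 9), basal (7 of 8), endothelial (8 of 8) and adipocyte markers (5 of 6) lay below the median level of all genes, 6.67. Of these 5 lists 0 members were called by limma, 5 had an unadjusted p under 0.05, and a block on the replicate number over the 6 total RNA arrays called 2 fibroblast markers and 1 endothelial marker higher and 1 macrophage marker lower. Of the luminal markers 1 of 10 was called, higher. In bulk RNA, more cells of a type and more RNA per cell cannot be told apart. Vim, the vimentin gene usually taken as mesenchymal, was highly expressed in both groups, at a mean of 13.73 in TGF-b1-treated and 13.87 in control cells.

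Genes were tested with limma over all 12 arrays and called at an adjusted p under 0.05. By this rule 452 of 18193 genes (2.48%) were called, 266 higher (1.46%) and 186 lower (1.02%) with TGF-b1. Counts of called members in the gene lists below, in total RNA without a block, are to be read against these shares. Of the 452 called genes, 85 rose and 38 fell by at least 2-fold, and 7 rose and 2 fell by at least 4-fold. The called genes had a median log2 change of 0.83 among those higher and -0.71 among those lower. The TGF-b1 and control arrays did not overlap for any of the 452, against 3281 of all genes (18.0%). With the replicate number as a block over the 6 total RNA arrays, 1090 genes were called, 571 higher and 519 lower. Deviations from the group means correlated at 0.12 to 0.41 between total RNA arrays of the same number. With the block over all 12 arrays, 701 were called, 402 higher and 299 lower, but that block also ties total to newly made arrays of the same number, which correlated at only 0.01 to 0.31. These are called the 6-array and the 12-array replicate block. The 6-array block leaves few arrays to estimate each gene's own spread, and its adjusted p largely followed the size of the change. Egr2 (1.88 ± 0.36, SE without a block) had 1.12e-18 and Cxxc5 (1.88 ± 0.17) 4.59e-19. A call that the 6-array block alone gives is therefore weak evidence for a single gene. Called genes were mostly well expressed, with a median level of 8.46 for those higher and 8.06 for those lower, against 6.67 over all genes. A further 486 probe sets on the arrays stood for called genes without having been used, and 450 of them (92.6%) had the sign of the probe set used, against 64.4% of the 16752 such probe sets of all genes.

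**Figure D1:**
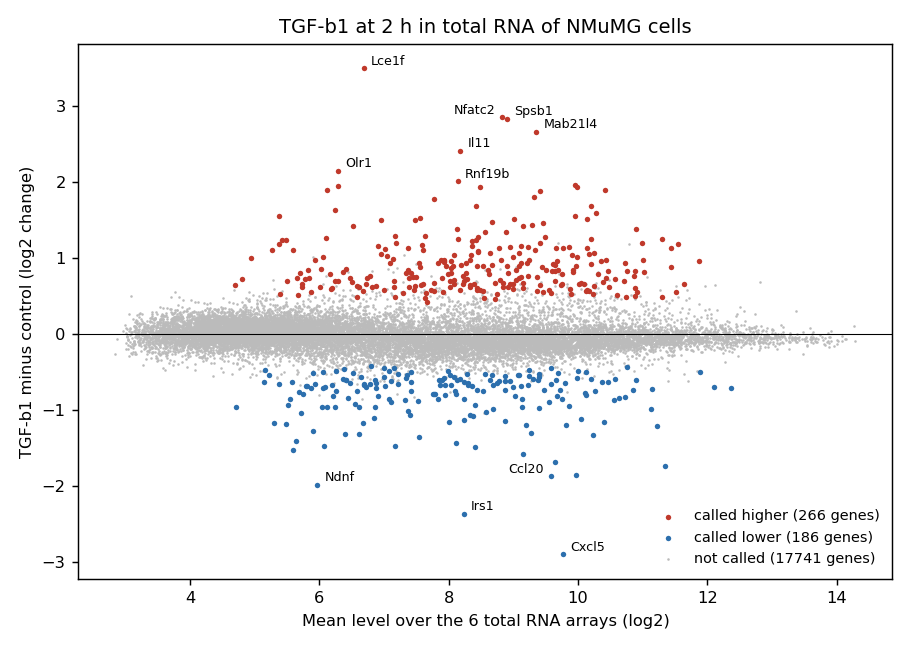
Each point is 1 gene, with its mean level over the 6 total RNA arrays (log2) on the x axis and its log2 change, TGF-b1 minus control, on the y axis. The 266 genes called higher (red) and the 186 called lower (blue) spread over the range of levels, and Lce1f at 3.49 and Cxcl5 at -2.90 stand farthest from 0.

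The largest rise over all genes was that of Lce1f, a late cornified envelope gene known from the skin barrier. It measured 8.62, 8.34 and 8.33 in TGF-b1-treated cells, against 5.18, 4.78 and 4.86 in control cells. The groups were separated by more than 3 log2 units, and the rise of 3.49 ± 0.18 (11.3-fold, adjusted p = 1.85e-08) started from a level in the lower part of the range. The second probe set of the gene rose by 1.06. Nfatc2, which encodes a transcription factor activated by the phosphatase calcineurin, had 10.35, 10.41 and 10.01 in TGF-b1-treated cells, against 7.48, 7.45 and 7.29 in control cells. Its arrays were tight within each group and it rose by 2.85 ± 0.14 (7.2-fold, adjusted p = 1.81e-08). Its 5 other probe sets, all at lower levels, showed less: the highest of them rose by 0.72, and the other 4 had -0.04 to 0.34. Spsb1, an adaptor of an E3 ubiquitin ligase, had 10.53, 10.23 and 10.17 in TGF-b1-treated cells, against 7.67, 7.56 and 7.22 in control cells. It rose by 2.83 ± 0.14 (7.1-fold), and its 3 other probe sets had the same sign.

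Mab21l4 rose to 10.89, 10.59 and 10.56 in TGF-b1-treated cells, against 8.20, 7.70 and 8.18 in control cells, a change of 2.65 ± 0.16. Il11 encodes interleukin 11, a cytokine of the interleukin 6 family known to be induced by TGF-b. Its levels were 9.57, 9.36 and 9.21 in TGF-b1-treated cells, against 7.17, 6.76 and 6.99 in control cells, and it rose by 2.41 ± 0.27 (5.3-fold, adjusted p = 4.8e-05). The levels of Olr1, the receptor gene for oxidised low-density lipoprotein, were 7.43, 7.44 and 7.20 in TGF-b1-treated cells, against 5.39, 4.78 and 5.47 in control cells. Control array 2 was the lowest, all TGF-b1 arrays lay above all control arrays, and the rise was 2.14 ± 0.17. Rnf19b, an E3 ubiquitin ligase gene, rose by 2.00 ± 0.17, and Lmcd1, a LIM-domain regulator gene, by 1.95 ± 0.16.

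Several of the leading rises encode secreted growth factors or kinases. Pdgfb, the B chain of platelet-derived growth factor, measured 11.55, 11.38 and 11.15 in TGF-b1-treated cells, against 9.66, 9.47 and 9.29 in control cells, a rise of 1.89 ± 0.15. Its partner chain gene Pdgfa rose by 1.55 ± 0.13 (adjusted p = 4.05e-06), so that both chains of the factor were higher. Wnt9a, a Wnt ligand gene, had 7.58, 7.08 and 7.14 in TGF-b1-treated cells, against 5.56, 5.18 and 5.22 in control cells. This rise of 1.94 ± 0.17 rests on 1 probe set, since the other probe set of the gene, at a low level, had -0.05. The serine/threonine kinase gene Pim1 had 9.47, 9.33 and 9.54 in TGF-b1-treated cells, against 7.72, 7.59 and 7.25 in control cells. Pim1 rose by 1.93 ± 0.14, the pseudokinase scaffold gene Prag1 by 1.93 ± 0.14, the dual-specificity kinase gene Dyrk3 by 1.80 ± 0.14 and the CXXC zinc finger gene Cxxc5 by 1.88 ± 0.17. The other probe set of Prag1, at a lower level, had 0.08 ± 0.10, and that of Pim1 had 0.48 ± 0.18, neither called. Egr2, a zinc finger factor of the immediate-early class, was the most variable of the leading rises. It had 6.83, 7.46 and 6.86 in TGF-b1-treated cells, against 5.15, 5.81 and 4.54 in control cells, a rise of 1.88 ± 0.36 (adjusted p = 0.00589) with control arrays more than 1 log2 unit apart.

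**Figure D2:**
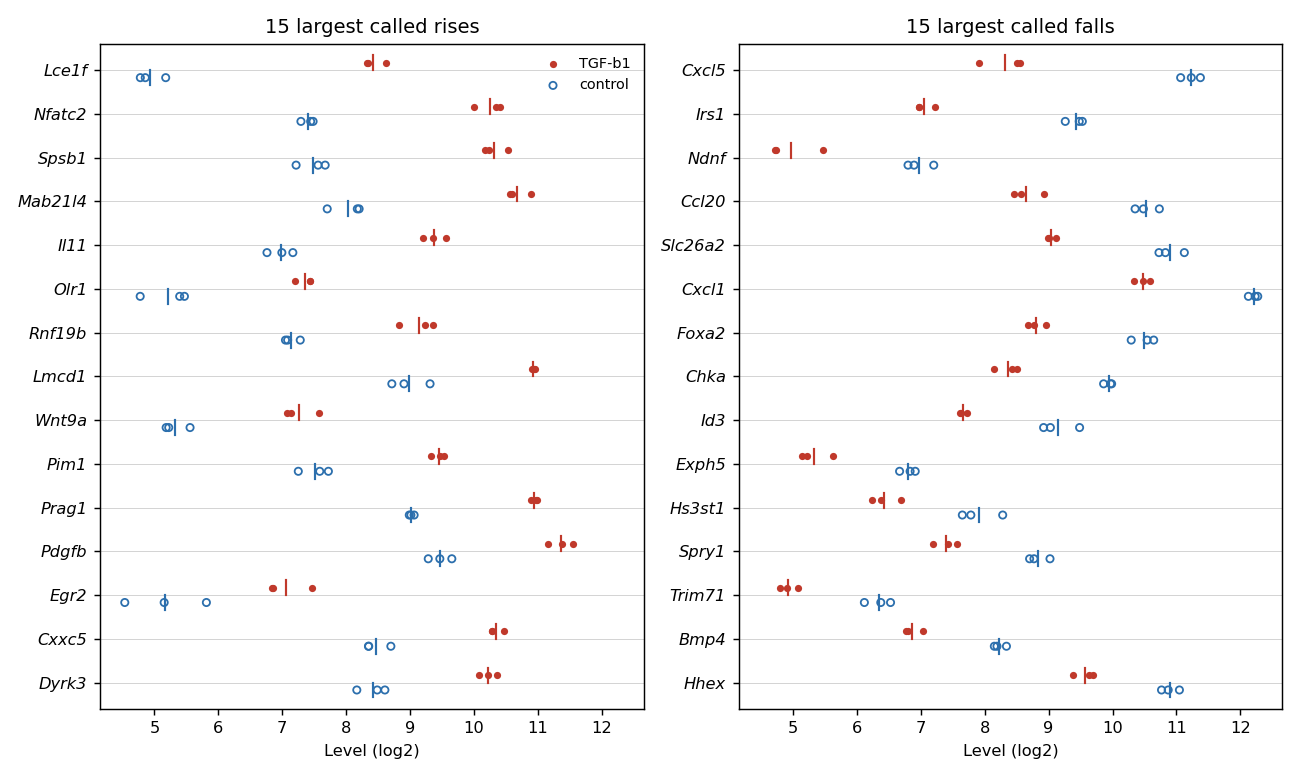
Levels (log2, x axis) of the 15 largest called rises (left) and falls (right) on each total RNA array, with TGF-b1 arrays as filled red points above control arrays as open blue points, and short bars at the group means. No gene shown has overlapping groups, and the control arrays of Egr2 are spread the widest among the rises.

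Cxcl5 led the falls. This chemokine gene, whose product attracts neutrophils, had 8.50, 8.54 and 7.92 in TGF-b1-treated cells, against 11.38, 11.23 and 11.07 in control cells, a change of -2.90 ± 0.16 (7.49-fold lower, adjusted p = 3.31e-08). Cxcl1, a chemokine gene of the same class, was among the most abundant of the genes that fell, at 10.59, 10.34 and 10.48 in TGF-b1-treated cells, against 12.27, 12.13 and 12.23 in control cells. It fell by 1.74 ± 0.11, and its arrays lay close together in both groups. Ccl20, which encodes a chemokine for CCR6-bearing cells, had 8.92, 8.57 and 8.45 in TGF-b1-treated cells, against 10.48, 10.35 and 10.73 in control cells, a change of -1.88 ± 0.15. Over the whole chemokine list, 16 genes measured, 3 fell and 1 rose, with a median of -0.11. The riser was Cxcl10, an interferon-inducible chemokine gene, at 0.76 ± 0.16 (adjusted p = 0.0154), a call that was lost without TGF-b1 array 1 or 2 or control array 2 (adjusted p 0.0812 to 0.104).

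Irs1, the adaptor that couples insulin and insulin-like growth factor receptors to downstream kinases, had 7.21, 6.97 and 6.96 in TGF-b1-treated cells, against 9.48, 9.26 and 9.53 in control cells. The change of -2.37 ± 0.15 (5.18-fold lower, adjusted p = 1.15e-07) was the only call among 18 insulin and IGF signalling genes, and Foxo1, a forkhead factor under insulin control, had 0.42 ± 0.14 (adjusted p = 0.183, 0.0183 with the 6-array replicate block, which called 1 of the list higher and 2 lower). Slc26a2, a sulfate transporter gene, averaged 9.04 ± 0.07 in TGF-b1-treated and 10.89 ± 0.21 in control cells (SD, n = 3 each), a change of -1.85 ± 0.17. Hs3st1, which encodes a heparan sulfate sulfotransferase, Ndnf, a secreted neurotrophic factor gene, and the choline kinase gene Chka changed by -1.48 ± 0.24, -1.99 ± 0.20 and -1.58 ± 0.14. The other probe set of Ndnf, at a low level, had -0.24 ± 0.11. Hhex, a homeobox factor gene, Trim71, an RNA-binding ubiquitin ligase gene, and Exph5, which encodes an effector of a Rab GTPase, changed by -1.33 ± 0.12, -1.41 ± 0.15 and -1.48 ± 0.14. The 15 largest rises and 15 largest falls were called under every alternative setting that held them and with any 1 of the 6 total RNA arrays left out. Lce1f, Ndnf, Exph5 and Trim71 were absent from the setting limited to genes above the median level.

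Promoter windows of 5 of these genes are shown because they hold short sequences that SMADs, AP-1 or NF-kB are known to bind and because the genes stood among the largest changes. Where a gene had several windows, the window with the most matches to the motifs was taken. Each window runs 5′ to 3′ on the strand of the gene, from 250 bases before to 50 bases after the RefSeq start of transcription (mouse build GRCm38.p6), with matches to the motifs in capitals.
Nfatc2, chr2:168590316-168590615, minus strand: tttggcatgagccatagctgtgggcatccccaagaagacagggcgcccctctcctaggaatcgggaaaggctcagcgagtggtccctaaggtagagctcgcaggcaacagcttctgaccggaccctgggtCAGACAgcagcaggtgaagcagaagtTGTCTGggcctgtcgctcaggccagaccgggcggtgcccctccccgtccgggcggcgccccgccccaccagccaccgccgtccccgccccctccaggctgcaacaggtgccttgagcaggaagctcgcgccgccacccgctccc
Il11, chr7:4778092-4778391, minus strand: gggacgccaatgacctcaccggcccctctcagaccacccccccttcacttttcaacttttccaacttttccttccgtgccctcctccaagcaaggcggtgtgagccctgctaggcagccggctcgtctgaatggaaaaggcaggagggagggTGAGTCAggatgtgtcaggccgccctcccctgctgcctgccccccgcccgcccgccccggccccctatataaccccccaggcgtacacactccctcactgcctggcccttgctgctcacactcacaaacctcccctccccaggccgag
Olr1, chr6:129507116-129507415, minus strand: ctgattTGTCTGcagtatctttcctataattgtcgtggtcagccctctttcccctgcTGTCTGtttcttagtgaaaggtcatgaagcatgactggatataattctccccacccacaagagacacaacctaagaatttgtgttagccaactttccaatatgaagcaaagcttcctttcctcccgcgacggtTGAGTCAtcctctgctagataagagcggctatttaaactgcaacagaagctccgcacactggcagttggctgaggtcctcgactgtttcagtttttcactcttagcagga
Ccl20, chr1:83116516-83116815, plus strand: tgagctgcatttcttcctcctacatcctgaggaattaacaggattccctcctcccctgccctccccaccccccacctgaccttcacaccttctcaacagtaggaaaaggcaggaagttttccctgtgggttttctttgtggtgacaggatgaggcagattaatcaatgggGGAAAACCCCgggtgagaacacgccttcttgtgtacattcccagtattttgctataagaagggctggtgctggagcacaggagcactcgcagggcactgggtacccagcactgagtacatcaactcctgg
Cxcl1, chr5:90890995-90891294, plus strand: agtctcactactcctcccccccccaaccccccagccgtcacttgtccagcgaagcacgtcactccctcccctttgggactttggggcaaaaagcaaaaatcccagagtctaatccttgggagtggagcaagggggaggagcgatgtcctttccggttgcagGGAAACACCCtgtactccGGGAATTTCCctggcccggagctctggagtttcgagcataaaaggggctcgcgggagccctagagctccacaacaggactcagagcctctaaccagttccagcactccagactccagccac
The motifs searched on both strands were the palindromic SMAD element GTCTAGAC, the CAGA-type SMAD box CAGACA, the AP-1 site TGANTCA and the NF-kB site, GGGNN followed at once by TTTCC, and no motif contains another. In Nfatc2 the capitals mark SMAD boxes that begin 120 and 94 bases before the start, in Olr1 SMAD boxes at 244 and 193 and an AP-1 site at 60 bases before it, and in Il11 an AP-1 site at 98 bases. In Ccl20 an NF-kB match begins 80 bases before the start, and in Cxcl1 such matches begin 89 and 71 bases before it. Windows were found for 204 of the genes called higher and 144 of those called lower. The SMAD box stood in 23.8% of the 294 windows of genes called higher and 16.8% of the 191 windows of genes called lower, against 21.0% of all 32851 windows and 17.9% of the 18109 windows of measured genes. The AP-1 site stood in 11.2% and 8.38% of the windows of genes called higher and lower, against 7.81% of all windows and 6.38% of the windows of measured genes. The NF-kB site stood in 1.02% and 1.57%, against 1.63% of all windows and 1.58% of those of measured genes, and the palindrome in 0 of the called genes' windows, against 0.213% and 0.243%. These matches describe the letters in the windows and are not evidence of binding.

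The TGF-b pathway itself was next read by the roles of its members. Among 12 receptor genes 3 rose and 0 fell (25.0% called, against 2.48% of all genes). Tgfbr1, the type I receptor for TGF-b, had 12.23, 12.01 and 11.55 in TGF-b1-treated cells, against 10.95, 10.61 and 10.48 in control cells, a rise of 1.25 ± 0.16 (adjusted p = 0.000226, 0.101 with the mean of the gene's 3 probe sets). Acvr1, a type I receptor used by bone morphogenetic proteins (BMPs) and activins, had 11.59, 11.73 and 11.45 in TGF-b1-treated cells, against 10.20, 10.23 and 10.18 in control cells, a rise of 1.38 ± 0.16. Bmpr2, the type II receptor for BMPs, rose by 0.81 ± 0.15 (adjusted p = 0.00436). Tgfbr2, the type II receptor for TGF-b, had -0.41 ± 0.27 and was not called. The list median was 0.00, and of the 9 receptors not called Acvr2b had the largest change, -0.54 ± 0.21. With the 6-array replicate block 3 receptors were called higher and 2 lower.

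Of the 6 SMAD genes that transmit the signal, Smad3 was the 1 called, at 0.50 ± 0.12 (adjusted p = 0.0292). That call was lost without TGF-b1 array 1, 2 or 3 or control array 1 or 2 (adjusted p 0.0866 to 0.144), under quantile normalization (0.0809) and with the mean of the gene's probe sets (0.314). The others lay within 0.2 of no change, from -0.19 ± 0.12 for Smad9 to 0.15 ± 0.17 for Smad5.

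Of the genes that restrain the pathway, 6 of 13 rose and 0 fell, with a median of 0.39 against -0.03 over all genes. Smad7, the inhibitory SMAD that blocks the type I receptor, had 10.86, 10.91 and 10.70 in TGF-b1-treated cells, against 9.58, 9.46 and 9.68 in control cells, a rise of 1.25 ± 0.11 (adjusted p = 7.35e-06). Ski and Skil encode corepressors that bind SMADs in the nucleus. Skil had 11.96, 11.99 and 12.05 in TGF-b1-treated cells, against 10.91, 10.79 and 10.91 in control cells and rose by 1.13 ± 0.12, and Ski rose by 1.03 ± 0.17. Ldlrad4, which encodes a membrane protein that sequesters SMAD2 and SMAD3, had the largest rise of the list at 1.41 ± 0.17. Tgif1, a homeobox corepressor gene, had 0.39 ± 0.25 (adjusted p = 0.74) and was not called, but was with the 6-array replicate block (adjusted p = 0.0327).

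Ligand and ligand trap genes had 2 members called of 18, both lower, while the list median was 0.14. Bmp4, a BMP ligand gene, had 7.04, 6.76 and 6.80 in TGF-b1-treated cells, against 8.15, 8.19 and 8.34 in control cells, a change of -1.36 ± 0.12 (adjusted p = 4.05e-06). Inhbb, a subunit of activins and inhibins, fell by 0.81 ± 0.18 (adjusted p = 0.0212), a call lost without TGF-b1 array 2 or 3 or control array 1 or 3 (adjusted p 0.0777 to 0.137), under quantile normalization (0.087) and with the mean of the gene's probe sets (0.125). The gene of the ligand itself, Tgfb1, had 0.31 ± 0.16 and was not called. The list had 2 higher and 2 lower with the 6-array replicate block.

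**Figure D3:**
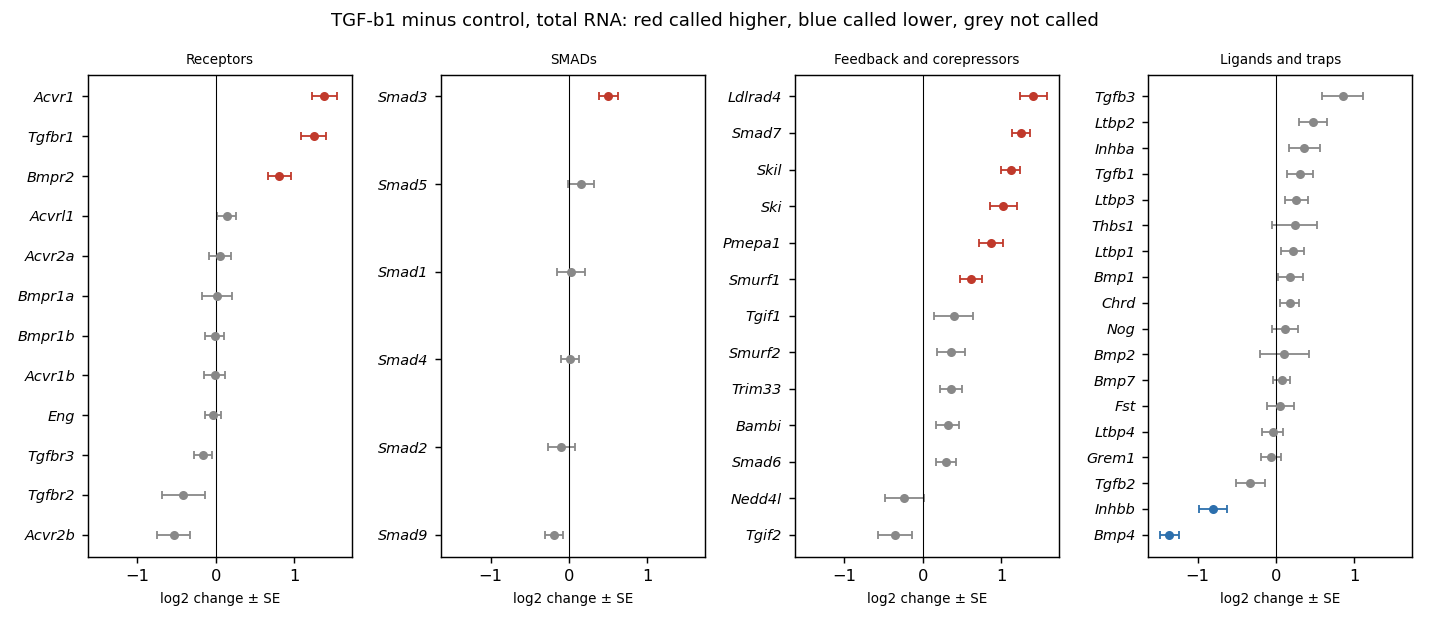
Log2 change, TGF-b1 minus control, with its SE (x axis) for each measured receptor, SMAD, feedback and ligand gene (rows), sorted within each group. Called members are red (higher) or blue (lower), and the called receptors and feedback genes lie to the right of 0 while Bmp4 and Inhbb lie to the left.

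The Id genes encode inhibitors of basic helix-loop-helix factors and are known targets of BMP signalling. Id3 had 7.63, 7.62 and 7.73 in TGF-b1-treated cells, against 9.03, 8.92 and 9.48 in control cells, a change of -1.49 ± 0.16 (adjusted p = 2.95e-05). Id2 fell by 0.71 ± 0.15 (adjusted p = 0.015), a call lost without TGF-b1 array 3 or control array 1 or 2 (adjusted p 0.0534 to 0.0992) and under quantile normalization (0.061). The other probe sets of Id2, at lower levels, had -1.27 ± 0.27 and -1.18 ± 0.16, both called by limma (adjusted p = 0.0221 and 0.000483). Id1 had 9.51, 9.31 and 9.51 in TGF-b1-treated cells, against 9.94, 9.60 and 11.10 in control cells, and with -0.77 ± 0.28 it was not called (adjusted p = 0.282) although its groups did not overlap. With the 6-array replicate block it was called (adjusted p = 6.34e-05), and the list then had 1 higher and 4 lower. With control array 3 left out and no block, Id1 had -0.32 (adjusted p = 0.907). Without a block, of the 10 measured BMP-type targets 2 fell and 0 rose, with a median of 0.01.

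Early TGF-b target genes formed the list with the highest share of calls among the 44 lists. Of 27 measured, 13 rose and 0 fell, with a median of 0.78, and with any 1 array left out 12 to 13 were called. With the replicate block 19 rose and 1 fell over the 6 arrays, and 18 and 1 over all 12. The list is not independent of earlier results on these samples. Besides Spsb1, Il11, Lmcd1 and the Pdgf genes it held Bhlhe40, a transcriptional repressor gene, at 11.21, 10.95 and 10.94 in TGF-b1-treated cells, against 9.40, 9.07 and 9.59 in control cells. Bhlhe40 rose by 1.68 ± 0.17 (adjusted p = 1.59e-05), and Klf10, a TGF-b-inducible zinc finger repressor gene, rose by 0.75 ± 0.11. Vegfa, the vascular endothelial growth factor gene, rose by 1.07 ± 0.14 (adjusted p = 0.000226). Junb, an AP-1 subunit gene, had 10.22, 9.96 and 10.13 in TGF-b1-treated cells, against 9.36, 9.13 and 9.48 in control cells, and its groups did not overlap. Its 0.78 ± 0.28 was not called (adjusted p = 0.272), but was with the 12-array replicate block (adjusted p = 0.0137) and with only the 6 total RNA arrays in the fit (0.0026).

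Of 16 measured EMT transcription factor genes 4 rose and 0 fell, with a median of 0.16. With 1 array left out, 1 to 3 were called, and with the 6-array replicate block 6 rose and 1 fell (4 and 1 over all 12 arrays). Ets1, an ETS family factor gene, had 10.95, 11.09 and 10.58 in TGF-b1-treated cells, against 10.21, 10.07 and 9.88 in control cells, a rise of 0.82 ± 0.14 that was called under every setting. Snai1, the zinc finger repressor of E-cadherin, had 6.61, 6.68 and 7.20 in TGF-b1-treated cells, against 6.23, 6.26 and 5.81 in control cells. Its 0.73 ± 0.17 (adjusted p = 0.0294) was lost without TGF-b1 array 2 or 3 or control array 1, 2 or 3 (adjusted p 0.0508 to 0.181). Sox9 rose by 0.80 ± 0.19 (adjusted p = 0.0268), a call lost without TGF-b1 array 2 or 3 or control array 1 or 3 (adjusted p 0.0986 to 0.157) and with the mean of the gene's probe sets (0.0786). Snai3 rose by 0.48 ± 0.11, with its call lost without TGF-b1 array 1, 2 or 3 or control array 1 or 2 (adjusted p 0.0543 to 0.123) and with the mean of the gene's probe sets (0.109). Zeb1 had 0.45 ± 0.18 (adjusted p = 0.357) and Zeb2 0.10 ± 0.13, neither called. Zeb1 was called with only the 6 total RNA arrays in the fit (adjusted p = 0.0413) and with the 6-array replicate block (adjusted p = 0.00894).

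Factors that keep the epithelial state moved in both directions, 2 lower and 1 higher of 14. Foxa2, a pioneer forkhead factor of endoderm-derived epithelia, had 8.96, 8.77 and 8.68 in TGF-b1-treated cells, against 10.54, 10.29 and 10.64 in control cells, a change of -1.69 ± 0.16 (adjusted p = 9.39e-06). Klf5, a Krüppel-like factor of proliferating epithelia, fell by 0.78 ± 0.13, and Elf3, an epithelial ETS factor gene, rose by 0.64 ± 0.11. Junction and polarity genes were also divided, 2 higher and 2 lower of 28. Cldn4, a tight-junction claudin gene, had 6.94, 7.15 and 7.07 in TGF-b1-treated cells, against 5.35, 5.80 and 5.14 in control cells, a rise of 1.62 ± 0.21 (adjusted p = 0.000226), and Jup, the plakoglobin gene, rose by 0.80 ± 0.11. Cgn, the cingulin gene, fell by 0.54 ± 0.13, its call lost without TGF-b1 array 2 or 3 or control array 1, 2 or 3 (adjusted p 0.0644 to 0.189). Pard6b, a polarity adaptor gene, fell by 0.54 ± 0.13, its call lost without TGF-b1 array 1, 2 or 3 or control array 1 or 2 (adjusted p 0.0654 to 0.203), with arrays centred on their median (0.0515) and with the mean of the gene's probe sets (0.106).

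The usual end markers of EMT did not reach the threshold at 2 h. Cdh1, the E-cadherin gene, had 11.71, 11.61 and 11.22 in TGF-b1-treated cells, against 11.74, 11.53 and 11.48 in control cells, and the groups overlapped (log2 change -0.07 ± 0.14, adjusted p = 0.949). Cdh2, the N-cadherin gene, had -0.05 ± 0.15, Vim -0.13 ± 0.24 and Fn1, the fibronectin gene, -0.03 ± 0.25. The other probe set of Fn1, at a lower level, had 0.58 ± 0.21 (adjusted p = 0.319). A p above the threshold does not show that the groups were equal.

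Of 31 matrix genes 3 rose and 0 fell (9.68% called, against 2.48% of all genes), and 6 rose with the 6-array replicate block. Col7a1, the anchoring fibril collagen gene, had 7.69, 7.83 and 7.94 in TGF-b1-treated cells, against 6.83, 7.12 and 7.12 in control cells, a rise of 0.80 ± 0.12 (adjusted p = 0.000864). Lamb3, a laminin chain gene, rose by 0.83 ± 0.17, with its call lost without TGF-b1 array 1 (adjusted p 0.0626). Has2, a hyaluronan synthase gene, had 8.65, 9.61 and 9.41 in TGF-b1-treated cells, against 7.44, 8.01 and 8.23 in control cells. Has2 rose by 1.33 ± 0.28, and its call was lost without TGF-b1 array 2 or 3 or control array 1 (adjusted p 0.0829 to 0.0971). The other probe set of Has2 had 1.35 ± 0.29 and was called by limma (adjusted p = 0.0223). The actin cytoskeleton and focal adhesion list had Zyx, the zyxin gene, called of 30, at 0.62 ± 0.12, lost without TGF-b1 array 1 (adjusted p 0.0576). That is 3.33% of the list, near the share of all genes. With the replicate block, over 6 or 12 arrays, that list had 3 members called, among them the integrin gene Itga5 (log2 change 0.49, adjusted p = 0.0311 over 12 arrays). Among 21 protease and inhibitor genes (4.76% called) Ctla2a, a cathepsin inhibitor gene, rose by 0.73 ± 0.15, lost without TGF-b1 array 2 or control array 2 (adjusted p 0.0614 to 0.0676). Timp3, a metalloprotease inhibitor gene, had 0.81 ± 0.28 (adjusted p = 0.228, and 0.000184 with the 12-array replicate block), and with that block 2 members of the list rose and 1 fell.

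Keratins and cornified envelope genes had 3 higher and 1 lower of 20. Beside Lce1f, Krt20 had 11.24, 11.31 and 11.02 in TGF-b1-treated cells, against 10.14, 10.28 and 10.37 in control cells, a rise of 0.93 ± 0.13, and Krt80 rose by 0.60 ± 0.11. Ivl, the involucrin gene of the same envelope, fell by 0.66 ± 0.12 (adjusted p = 0.00541). The list median of 0.03 was close to that of all genes.

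**Figure D4:**
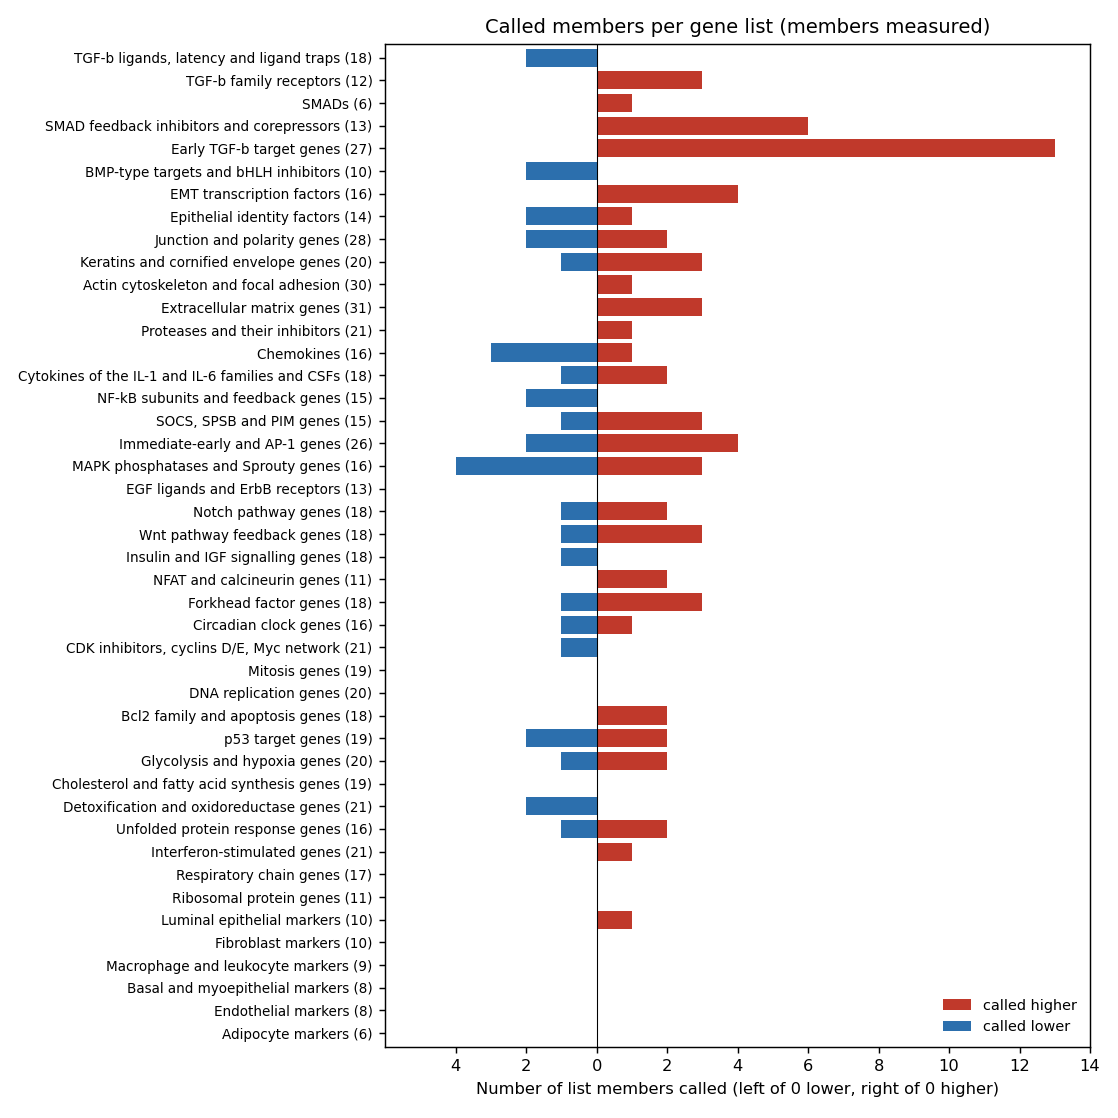
Number of members called higher (red, right of 0) and lower (blue, left of 0) in each of the 44 gene lists, with the number of members measured in brackets. Early TGF-b target genes have 13 called higher of 27, and 11 lists have no member called.

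Genes that limit signalling through kinases were called often, and in both directions. Of 16 MAPK phosphatase and Sprouty genes 3 rose and 4 fell (43.8% called, against 2.48% of all genes). With 1 array left out 4 to 6 were called. With the replicate block 7 rose and 4 fell over the 6 arrays, and 6 and 4 over all 12. Spry1, an inhibitor of receptor tyrosine kinase signalling, had 7.57, 7.43 and 7.20 in TGF-b1-treated cells, against 9.02, 8.77 and 8.70 in control cells, a change of -1.43 ± 0.13 (adjusted p = 8.9e-06). Dusp1, a phosphatase of stress-activated kinases, had 10.70, 10.60 and 10.59 in TGF-b1-treated cells, against 11.71, 11.28 and 11.86 in control cells, a change of -0.99 ± 0.16. Dusp2, a nuclear MAPK phosphatase gene, rose by 1.02 ± 0.13 (adjusted p = 0.00025). Spry2 fell by 0.61 ± 0.11 on the probe set used, while its other probe set, at a low level, had 0.07, and the mean of both was not called (adjusted p = 0.154).

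Immediate-early and AP-1 genes had 4 higher and 2 lower of 26 (23.1% called). With the 12-array replicate block 7 were higher and 4 lower (8 and 5 over the 6 arrays). Zfp36, which encodes tristetraprolin, a protein that destabilises AU-rich messenger RNAs, had 7.49, 7.40 and 7.36 in TGF-b1-treated cells, against 8.54, 8.52 and 8.67 in control cells, a change of -1.16 ± 0.12 (adjusted p = 2.36e-05). The AP-1 subunit genes Fosl2 and Jun rose by 0.98 ± 0.11 and 0.76 ± 0.12. Among SOCS, SPSB and PIM genes, 15 measured, the cytokine signalling inhibitor gene Cish rose by 1.15 ± 0.11 with Spsb1 and Pim1, and 1 fell (3 with the replicate block over 6 or 12 arrays). Pim3, a close relative of Pim1, went the other way, at 10.69, 10.54 and 10.62 in TGF-b1-treated cells, against 11.87, 11.74 and 11.88 in control cells, a change of -1.21 ± 0.15.

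In the cytokine list, outside the chemokines, 2 rose and 1 fell of 18 (16.7% called, against 2.48% of all genes), and with the 12-array replicate block 3 rose and 2 fell. Csf2, the GM-CSF gene, rose by 0.61 ± 0.13, a call lost without TGF-b1 array 1 or 3 or control array 2 or 3 (adjusted p 0.0614 to 0.09). Il33, an alarmin gene, fell by 0.44 ± 0.11, a call lost without TGF-b1 array 1, 2 or 3 or control array 1, 2 or 3 (adjusted p 0.0843 to 0.135), with arrays centred on their median (0.0512) and under quantile normalization (0.0702). Of 15 NF-kB subunit and feedback genes 2 fell and 0 rose (13.3% called). Nfkbiz, a nuclear cofactor of NF-kB needed for a subset of its targets, had 10.28, 10.27 and 9.90 in TGF-b1-treated cells, against 10.86, 10.67 and 10.84 in control cells, a change of -0.64 ± 0.12 (adjusted p = 0.00725). Tnfaip2 fell by 0.68 ± 0.13, a call lost without TGF-b1 array 1 (adjusted p 0.0516). Of 21 interferon-stimulated genes Oasl2 rose, by 0.72 ± 0.13, and the replicate block, over 6 or 12 arrays, added 1 that fell.

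Other signalling lists changed through single ligands or receptors. Of 18 Wnt pathway genes 3 rose and 1 fell (22.2% called, against 2.48% of all genes), and the risers were ligand genes. Wnt7a had 9.28, 8.83 and 8.77 in TGF-b1-treated cells, against 7.96, 7.51 and 7.77 in control cells, a rise of 1.21 ± 0.15. Its other probe sets, at lower levels, had 0.11 and 0.06. Wnt7b rose by 0.89 ± 0.17, a call lost without TGF-b1 array 1 (adjusted p 0.0524). The other probe set of Wnt7b had 0.66 ± 0.16 and was called by limma (adjusted p = 0.0391). The receptor gene Fzd7 fell by 0.55 ± 0.12, a call lost without TGF-b1 array 2 or 3 or control array 1 or 3 (adjusted p 0.0821 to 0.114) and with the mean of the gene's probe sets (0.189). In the Notch list the ligand gene Dll1 had 7.35, 7.67 and 7.42 in TGF-b1-treated cells, against 6.26, 6.55 and 6.46 in control cells, a rise of 1.05 ± 0.14 (adjusted p = 0.000287). The receptor gene Notch1 fell by 0.95 ± 0.20, a call lost without TGF-b1 array 1 or 2 or control array 2 or 3 (adjusted p 0.0537 to 0.0924). Notch2, another receptor gene, rose by 0.51 ± 0.12, a call lost without TGF-b1 array 1, 2 or 3 or control array 1 or 2 (adjusted p 0.0524 to 0.146) and with the mean of the gene's probe sets (0.0786). Of 13 EGF ligand and ErbB receptor genes 0 were called by limma, and 2 had an unadjusted p under 0.05. Nrg1, a ligand gene of this family, was called lower with the 12-array replicate block (log2 change -0.84, adjusted p = 0.0138) and with only the 6 total RNA arrays in the fit (0.0073). With the 6-array replicate block the Notch list had 4 higher and 2 lower, against 2 and 1 of 18 without it (16.7% called).

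Transcription factor families were represented by NFAT and forkhead genes. Beside Nfatc2, Nfatc1 rose by 0.90 ± 0.19 (adjusted p = 0.012), a call lost without TGF-b1 array 1 or 2 or control array 1 or 3 (adjusted p 0.0531 to 0.074) and with the mean of the gene's probe sets (0.063). The other probe sets of Nfatc1 had 0.69 ± 0.13 (limma adjusted p = 0.00687), 0.72 ± 0.22 (0.173), 0.68 ± 0.17 (0.0686) and 0.14 ± 0.21 (0.951). The other 9 NFAT and calcineurin genes were not called. Of 18 forkhead genes 3 rose and Foxa2 fell (22.2% called), and with 1 array left out 1 to 2 were called. Foxq1 had 10.15, 9.84 and 9.68 in TGF-b1-treated cells, against 9.30, 8.73 and 8.33 in control cells, a rise of 1.10 ± 0.25. The control arrays were spread over about 1 log2 unit, and the call was lost without TGF-b1 array 1 or 2 or control array 2 or 3 (adjusted p 0.075 to 0.144) and under quantile normalization (0.0539). The other probe set of Foxq1 had 0.82 ± 0.19 and was called by limma (adjusted p = 0.0332). Foxd1 rose by 0.58 ± 0.13, a call lost without TGF-b1 array 1 or 3 or control array 1 or 2 (adjusted p 0.072 to 0.154). Foxa3 rose by 0.70 ± 0.16, a call lost without TGF-b1 array 1, 2 or 3 or control array 1, 2 or 3 (adjusted p 0.0645 to 0.147). In the clock list Dbp, a PAR bZIP factor gene under circadian control, had 6.10, 6.31 and 6.45 in TGF-b1-treated cells, against 7.10, 7.42 and 7.67 in control cells, a change of -1.11 ± 0.19 (adjusted p = 0.0028).

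Stress and survival genes showed single changes too. Gadd45a, a growth arrest and DNA damage gene, had 8.74, 8.97 and 8.27 in TGF-b1-treated cells, against 7.14, 6.94 and 6.60 in control cells, a rise of 1.77 ± 0.19 (adjusted p = 3.7e-05). The p53 target list that holds it had 2 higher and 2 lower of 19 (21.1% called), 3 and 4 with the 12-array replicate block, and a median of -0.19. Its Gadd45g had 0.73 ± 0.17, a call lost without TGF-b1 array 1, 2 or 3 or control array 1 or 2 (adjusted p 0.0591 to 0.19). Trp53inp1 had -0.59 ± 0.13, a call lost without TGF-b1 array 2 or 3 or control array 1 or 3 (adjusted p 0.0853 to 0.0992) and with the mean of the gene's probe sets (0.445). Sesn2 had -0.63 ± 0.15, a call lost without TGF-b1 array 1, 2 or 3 or control array 1 or 3 (adjusted p 0.0746 to 0.185). Bmf, a BH3-only gene that promotes apoptosis, rose by 1.27 ± 0.21 (adjusted p = 0.00167, 0.0531 with the mean of its probe sets). Bcl2l11, the BIM gene of the same class, rose by 0.81 ± 0.18, a call lost without TGF-b1 array 1 or 2 or control array 1, 2 or 3 (adjusted p 0.0641 to 0.114) and under quantile normalization (0.0685). The other probe sets of Bcl2l11 had 0.74 ± 0.13 (limma adjusted p = 0.00369), 0.66 ± 0.12 (0.006), 0.58 ± 0.17 (0.149) and 0.30 ± 0.14 (0.598). The apoptosis list had 2 higher and 0 lower of 18 (11.1% called), and 2 and 2 with the 12-array replicate block.

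In the unfolded protein response list, Trib3, a pseudokinase gene induced by stress, had 9.15, 9.04 and 8.91 in TGF-b1-treated cells, against 7.93, 7.69 and 7.78 in control cells, a rise of 1.23 ± 0.13 (adjusted p = 3.7e-05). Xbp1, a transcription factor of that response, rose by 0.76 ± 0.12. Ddit3, which encodes CHOP, fell by 0.61 ± 0.12, a call lost without TGF-b1 array 2 (adjusted p 0.0527). Hk2, the hexokinase 2 gene, had 10.92, 10.66 and 10.76 in TGF-b1-treated cells, against 9.76, 9.44 and 9.96 in control cells, a rise of 1.06 ± 0.15, and with Vegfa it made the 2 rises among 20 glycolysis and hypoxia genes (4 with the replicate block over 6 or 12 arrays). Egln3, an oxygen-sensing prolyl hydroxylase gene, fell by 0.74 ± 0.12. Gclc, the catalytic subunit gene of glutathione synthesis, fell by 0.73 ± 0.11 (adjusted p = 0.00123) and was 1 of 2 falls among 21 detoxification genes (4 with the 6-array replicate block).

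Lists of general cell functions had 0 members called without a block in total RNA at 2 h. Of 19 mitosis and 20 DNA replication genes 0 were called by limma, with 0 and 0 at an unadjusted p under 0.05 and medians of -0.12 and -0.09. Cholesterol and fatty acid synthesis had 0 of 19 called, 5 at an unadjusted p under 0.05 and a median of -0.18. With the 6-array replicate block its members Lss and Hmgcs1, enzymes of sterol synthesis, were called lower (log2 changes -0.38 ± 0.14 and -0.37 ± 0.15 with the SE without a block, adjusted p = 0.0416 and 0.0489), and Hmgcs1 also with the mean of its probe sets (-0.52, adjusted p = 0.0254). Respiratory chain and ribosomal protein genes had 0 of 17 and 0 of 11 called, with 0 and 0 at an unadjusted p under 0.05. Among cell cycle regulators Cdkn2d, an inhibitor of cyclin D-dependent kinases, was the 1 call of 21, at -0.68 ± 0.17, and was lost without TGF-b1 array 1, 2 or 3 or control array 3 (adjusted p 0.0531 to 0.193), under quantile normalization (0.0588) and with only the 6 total RNA arrays in the fit (0.0591). Ccnd2, a cyclin D gene, had -0.49 ± 0.13 (adjusted p = 0.0774, 0.0361 with the 12-array replicate block and 0.0352 without control array 2). Its list had 4 members called lower with the 6-array replicate block.

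Total RNA holds RNA made before and after the factor was added, and the newly made fraction holds mostly the second kind. In newly made RNA 1116 genes (6.13%) were called, 609 higher (3.35%) and 507 lower (2.79%). Of the 266 genes higher in total RNA 246 were called higher there, and of the 186 lower 146 were called lower. The genes higher in total RNA had a median log2 change of 0.83 in total and 0.91 in newly made RNA, and those lower -0.71 in total and -0.76 in newly made RNA. The 2 effects share 1 fit, and labelled RNA is part of total RNA, so they are given side by side. Lce1f had 3.49 in total and 2.95 in newly made RNA, Spsb1 2.83 and 2.45, Olr1 2.14 and 2.78 and Irs1 -2.37 and -1.97. For these 4 the difference was not called.

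The difference of the effects, total minus newly made, was called for 12 genes (0.0660%), 10 above 0 (0.0550%) and 2 below (0.0110%). Of these, Ccl20, Cyp3a13 and Vnn1 were called under every setting. Ccl20 had -1.88 in total and -3.43 in newly made RNA, a difference of 1.55 ± 0.21 (adjusted p = 0.00757). Cyp3a13, a cytochrome P450 gene, had 6.97, 6.87 and 6.54 in TGF-b1-treated cells, against 7.43, 7.44 and 7.37 in control cells in total RNA. Its total RNA change was -0.62 ± 0.13, against -2.50 in newly made RNA, a difference of 1.88 ± 0.19 (adjusted p = 0.000274). The call of Cyp3a13 in total RNA was lost without TGF-b1 array 3 or control array 1 or 2 (adjusted p 0.0652 to 0.0948). Vnn1, a pantetheinase gene, was among the most abundant messages in total RNA, with 12.22, 12.11 and 12.02 in TGF-b1-treated cells, against 12.36, 12.20 and 12.40 in control cells. It overlapped between groups there (-0.21 ± 0.12, adjusted p = 0.678) and had -1.96 in newly made RNA (adjusted p = 5.79e-08). The count fell to 4, all above 0, without TGF-b1 total array 1 or 2, and to 5 without control total array 1 or 2 or control newly made array 3. It was 6 without control newly made array 2, 7 without TGF-b1 newly made array 3 and 20 without control newly made array 1. The 12-array replicate block, with its weak ties between fractions, called 39, 28 above 0 and 11 below.

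The later course was read in NM18 cells after 40 h of TGF-b1, where 3807 of 12393 genes (30.7%) were called, 1642 higher (13.2%) and 2165 lower (17.5%). The cells, the array type, the amplification, the presence of siRNA and the absence of 4sU differed from the 2 h experiment together with the time. These cannot be told apart. The NM18 arrays held 22690 probe sets, against 45101 in the NMuMG table, and the probe set of a gene was chosen within each table. The 2 h and 40 h values of a gene can thus come from different probe sets. Array 1 of the untreated NM18 cells was grouped by its title, although a free-text note on it speaks of TGF-b1. Of the 266 genes higher at 2 h, 210 were measured in NM18 cells, and 149 of them (71.0%) were higher, 10 lower (4.76%) and 51 not called there. Of the 186 genes lower at 2 h, 139 were measured, and 94 (67.6%) were lower, 4 higher (2.88%) and 41 not called. Seen from 40 h, 9.07% of the genes higher and 4.34% of those lower were called the same way at 2 h.

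Several leading genes of the 2 h response were also far from 0 at 40 h. Lce1f had 4.87 ± 0.26, Il11 3.96 ± 0.50, Lmcd1 3.31 ± 0.26 and Spsb1 2.64 ± 0.15 in NM18 cells. Cxcl5 had -4.17 ± 0.28 and Ccl20 -3.61 ± 0.27. Others were small or not called at 40 h. Nfatc2 had 0.08 ± 0.09 (adjusted p = 0.623) and Egr2 0.15 ± 0.14 (adjusted p = 0.482), while Wnt9a had 0.28 ± 0.08 (adjusted p = 0.0205). At 2 h other probe sets of Nfatc2 had -0.04 to 0.72 and the other of Wnt9a -0.05, so probe set and time cannot be told apart for them. The feedback genes Smad7 and Skil had 0.94 ± 0.19 and 1.00 ± 0.18 at 40 h. The receptors Tgfbr1 and Acvr1 had 1.07 ± 0.17 and 1.47 ± 0.10. Differences between the tables were not tested.

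**Figure D5:**
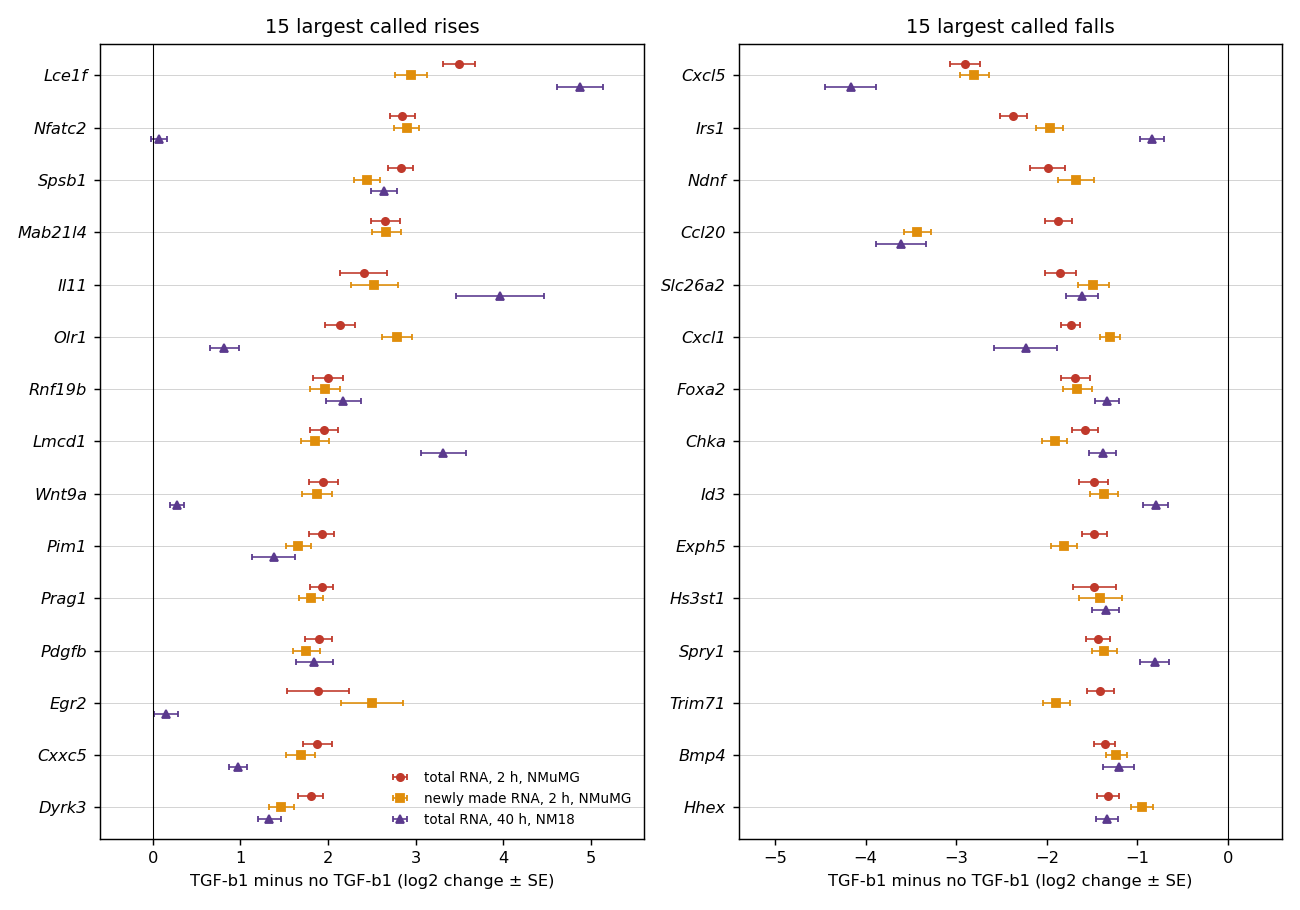
Log2 change with its SE (x axis) of the 15 largest called rises (left) and falls (right) in total RNA at 2 h (red circles), newly made RNA at 2 h (orange squares) and NM18 cells at 40 h (purple triangles, missing where not measured). The NM18 values come from another array type and can rest on other probe sets. Total and newly made RNA lie close together for most genes, with Ccl20 apart, and Nfatc2, Wnt9a and Egr2 lie near 0 at 40 h.

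The EMT end markers that were not called at 2 h were mostly called at 40 h. Cdh1 had -1.04 ± 0.09, Cdh2 0.77 ± 0.09 and Fn1 1.89 ± 0.32 in NM18 cells, while Vim had 0.08 ± 0.05 (adjusted p = 0.331). Zeb1 and Zeb2 had 0.91 ± 0.12 and 0.90 ± 0.24, whereas Snai1 had 0.16 ± 0.08 (adjusted p = 0.191). Id1 had -1.77 ± 0.15 and Id2 -2.57 ± 0.17. Krt19, a luminal keratin gene not called in total RNA at 2 h (-0.21 ± 0.17), had -1.09 in newly made RNA and -3.11 ± 0.24 at 40 h.

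List counts in NM18 cells at 40 h were also set beside those at 2 h. Of all genes 13.2% were called higher and 17.5% lower at 40 h. The mitosis list had 0 higher and 19 lower of 19 measured, the DNA replication list 0 higher and 18 lower of 19, and cholesterol and fatty acid synthesis 0 higher and 16 lower of 18, where total RNA at 2 h had 0 called in each without a block and 2 lower in the last with the 6-array replicate block. The actin cytoskeleton list had 21 higher and 0 lower of 30 at 40 h and the matrix list 13 higher and 0 lower of 30. Early TGF-b target genes had 20 higher and 2 lower of 27, read against 30.7% of all genes called there. In newly made RNA at 2 h the early target list had 14 higher and 1 lower of 27, and the detoxification list had 1 higher and 9 lower of 21, against 0 higher and 2 lower in total RNA.

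Opposite calls at 2 h and 40 h were found for 14 genes. Among the genes named by rule, Ivl was lower at 2 h and had 0.34 ± 0.07 at 40 h, and Snai3, Foxd1 and Foxa3 were higher at 2 h and had -0.24 ± 0.08, -0.25 ± 0.07 and -0.58 ± 0.11 at 40 h. The 2 h calls of Snai3, Foxd1 and Foxa3 were lost when certain single arrays were left out. The other probe set of Snai3 had 0.09 ± 0.11 at 2 h, and the probe sets used at 2 h and 40 h can differ. The largest 2 h rises among the 14 genes, chosen after their values were seen, were those of G0s2, an inhibitor of lipolysis (1.52 ± 0.20 at 2 h, -0.67 ± 0.10 at 40 h), and Ackr3, an atypical chemokine receptor (1.43 ± 0.15 and -0.55 ± 0.14). Neither gene was followed under the alternative settings.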

How the data were processed

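The authors deposited 1 value per probe set and array, taken here as log2 expression because of the range (2.34 to 14.85 in the NMuMG table, 4.57 to 14.59 in the NM18 table). Per the labels' protocols, NMuMG RNA was amplified linearly over a pair of rounds. The steps of summarisation and normalization are not given in these sources. The submitters' processing notes list affy 1.18.2 and give it no role. Of 45101 NMuMG probe sets, 34945 had 1 gene symbol in the platform annotation, 932 several, 9160 none, and 64 were controls. Of the 34945, 34741 were matched by Entrez identifier and 0 renamed. The probe set with the highest mean stood for its gene (18193 genes; 12393 in NM18).

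Each table was fitted on its own with lmFit and eBayes of limma 3.58.1, under R 4.3.3 (12 arrays in 4 groups, 9 arrays in 3 groups), two-sided, with Benjamini-Hochberg adjustment over all genes. Comparisons were TGF-b1 minus control in total RNA, the same in newly made RNA, the difference of both, and TGF-b1 at 40 h minus none. In simulated total RNA data of 18193 genes, 30%, 90%, 94% and 100% of genes changed by 0.5, 1, 1.5 and 2 (log2) were called. Each size had 50 changed genes, and 7 unchanged genes were called. The simulated noise was normal and independent, without array or replicate effects, so the shares in the real data can differ. Deviations from the group means correlated at 0.41, 0.12 and 0.21 between total RNA arrays of the same number, all above 0.1, and so the replicate numbers, from the titles, were taken to pair the total RNA arrays; a block over these 6 arrays and a block over all 12 are alternatives. Total and newly made arrays of the same number correlated at 0.01 to 0.31, so that the block over 12 arrays is only partly borne out. Other alternatives were median centring, quantile normalization, the mean of a gene's probe sets, genes above the median level, only the arrays compared, and each array left out.

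Genes named were the 15 largest called rises and falls whose groups did not overlap, up to 4 called members per list with the smallest p, up to 2 members of smallest p where fewer than 2 were called, up to 6 called genes of the difference with the smallest p, and a fixed set of 17 pathway and EMT genes. Krt8, Tgfb1, Tgfbr2, Acvr2b and Smad5 were added after their values were seen. The members, the 44 lists and the rule were chosen with earlier results of these data known. Promoter sequences come from RefSeq (GRCm38.p6).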

Additional observations from a re-analysis of the deposited data

Results flagged for a closer look

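The difference between the TGF-b1 effect in total RNA and in newly made RNA was called for 12 genes by limma, in a test of the difference itself. The differences, total minus newly made on the log2 scale, were 1.75 for Vnn1, 1.88 for Cyp3a13, 1.55 for Ccl20, 1.26 for Egln3, 1.00 for Il33 and 1.73 for Akr1c19. The remaining 6, listed after their values were seen, were Aldh1a1 at 1.21, Akr1c14 at 1.73, Tspan8 at 1.14, 3110009F21Rik at 1.55, Epb41l4b at -1.01 and Ctla2a at -1.34. The 10 genes with positive differences had log2 changes below 0 in both fractions that lay farther from 0 in newly made RNA, while Epb41l4b and Ctla2a had larger rises there.

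Epb41l4b, a FERM-domain protein gene, averaged 8.99 ± 0.11 in TGF-b1-treated and 7.91 ± 0.09 in control cells (total RNA, SD, n = 3 each), a rise of 1.09 against 2.10 in newly made RNA. Ctla2a had 9.47, 9.56 and 9.31 in TGF-b1-treated cells, against 8.95, 8.40 and 8.79 in control cells in total RNA, a rise of 0.73 against 2.07. Several of the genes with positive differences were abundant in total RNA: Tspan8 averaged 12.74 in TGF-b1-treated and 12.90 in control cells, and Aldh1a1, a retinaldehyde dehydrogenase gene, 11.78 and 12.02. In NM18 cells at 40 h Tspan8 had -3.07, Aldh1a1 -2.73, Vnn1 -2.65 and Il33 -4.78. The differences of Vnn1, Cyp3a13 and Ccl20 were called under every alternative, and that of Egln3 lost its call only with the mean of its probe sets (adjusted p = 0.0988). The differences of the other 8 genes each lost their call under 5 to 9 of the alternatives, most of which left out 1 array.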

How the results depend on the processing

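Called genes in total RNA numbered 452. The count was 463 with arrays centred on their median (298 higher, 165 lower), 468 with quantile normalization (301 and 167), 478 with the mean of probe sets, 385 for genes above the median level, 586 with only the 6 arrays, and 308 to 358 when 1 array was left out (228 and 109 without TGF-b1 array 3). It was 701 with the replicate block over all 12 arrays (402 and 299) and 1090 with the block and only the 6 total RNA arrays (571 and 519). The count for newly made RNA, 1116, became 680 with only its 6 arrays, 1128 with centring (717 higher, 411 lower) and 758 to 1288 when 1 array was left out. The count for the difference, 12, became 19 with quantile normalization, 39 with the replicate block, and 4 to 20 when 1 array was left out. The NM18 count, 3807, lay within 1.5 times under its alternatives (3103 to 4785). Of 101 named genes called in total RNA, 67 were called under all alternatives that held them, and no direction was reversed. Besides the genes given above, the 12-array replicate block changed the call of Cd14 (adjusted p = 0.0473). With the 6-array replicate block Dcn (adjusted p = 0.0353) and Tek (adjusted p = 0.0139), a fibroblast and an endothelial marker, were called higher, and Tek was so with quantile normalization (0.0366) and the mean of its probe sets (0.0452). The median change of all genes was -0.03, 0.01 with centring and -0.01 with quantile normalization. The number of arrays limits how small a change could be called.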

Other observations

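Further gene families were put together by symbol after their values were seen, and so carry no test beyond that of each gene. Of their members only Klf10 and Klf5 were followed under the alternative settings. Ephrin ligands, membrane-bound cues for cell contact, had 4 of 8 members higher: Efna1 at 0.70 ± 0.15, Efna2 at 0.83 ± 0.14, Efna3 at 0.50 ± 0.12 and Efnb1 at 0.57 ± 0.14 (limma adjusted p = 0.0141, 0.00194, 0.0419 and 0.0497). Among 13 ephrin receptor genes measured the largest change was -0.58 ± 0.16 for Epha4 (adjusted p = 0.0731). The Rassf genes, which encode Ras-association domain proteins, were divided: Rassf5 (1.13 ± 0.11) and Rassf8 (1.13 ± 0.11) rose, and Rassf6 (-0.79 ± 0.13) and Rassf9 (-1.33 ± 0.18) fell, of 10 measured.

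Both PGC-1 coactivator genes, known as regulators of mitochondrial gene expression, fell: Ppargc1a had -1.18 ± 0.14 (adjusted p = 0.000115) and Ppargc1b -0.75 ± 0.16 (adjusted p = 0.0136). At 40 h in NM18 cells Ppargc1a had -1.39 and Ppargc1b 0.41. The respiratory chain list had 0 members called at 2 h and 5 lower of 17 at 40 h, where 17.5% of all genes were lower. A link between the PGC-1 genes and that list was not tested. The paralogues Arid5a and Arid5b moved in opposite directions, at 1.29 ± 0.13 and -1.30 ± 0.15. Among 16 Krüppel-like factor genes Klf10 rose, and Klf3 fell by 1.13 ± 0.15 with Klf5.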
